A study of Oryza sativa Japonica Group with 6 samples.

Results

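Dehydrins and other late embryogenesis abundant (LEA) proteins are very hydrophilic proteins that accumulate in drying seeds and in plant tissue short of water, where they protect membranes and proteins. In rice the RAB16 dehydrin genes are known for their response to the hormone abscisic acid (ABA), which receptors of the PYL family, type 2C phosphatases, SnRK2 kinases (SAPK in rice) and bZIP factors such as TRAB1 relay to ABA-responsive elements in promoters. The salT gene encodes a mannose-binding lectin of the jacalin-related family and is induced by salt and drought in roots and leaf sheaths.

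The genes were selected by name: a gene entered if its symbol or any synonym was salT, RAB16A, RAB16B, RAB16C, RAB16D, RAB21, RAB25, DHN1, WSI18 or LEA3, with or without a leading Os. The theme was taken up with the signals of salT and RAB16D on these same arrays known, so every difference between the cell types given for these genes is a description and carries no test. Of the 10 names, 8 led to a gene, and RAB16A and WSI18 did not. RAB21 is another name used for RAB16A. The 8 genes had 12 probe sets, out of 57258 that are not controls, each paired with 1 gene, and 17905 genes had such a probe set. In the gene table RAB16D lay next to RAB16C and RAB16B next to RAB21, with 2 other genes between these pairs.

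The study set synergid cells, which flank the egg cell where the pollen tube enters, against antipodal cells at the other end of the embryo sac, with 3 arrays each. All came from wild-type, greenhouse-grown rice of the japonica cultivar Katy, with cells dissected by hand from florets at anthesis and no treatment on either side. The labelling notes speak of egg cells and zygotes, so the number of cells behind an array is not known here. The labels name biological replicates but no separate plants or days, so an error covers only how far these samples differ, for technical reasons too. Fewer cells of a type and less RNA per cell cannot be told apart in such samples.

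Signals are linear intensities and were read between arrays for 1 probe set. Signals of different probe sets are not comparable, so sums over a list weigh its brightest probe sets most. Every array had a trimmed mean of 500.1, and the median signal was 46.5 to 67.1 on 5 arrays and 170.3 on antipodal array 2. That array stood apart. Its hybridisation spike-in controls (27 probe sets) had a geometric mean of 60392 against 6311 to 12463, and its highest correlation with any other array was 0.783, against 0.900 to 0.930 for the rest. Actin control signals were 77.9 to 689 times higher at the 3′ than at the 5′ end of the transcript, while the same ratio for the GAPDH control was 1.00 to 2.56. No detection calls were used here. Markers of synergids and of egg cells fixed for this purpose matched 0 genes by symbol, and no antipodal marker was at hand, so the labels of the cell types were not checked in this way.

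The first salT probe set and RAB16D were higher on all antipodal than on all synergid arrays. The bright probe set of the dehydrin DHN1 was higher on all synergid arrays by a small margin. The signals of the remaining probe sets, the dim ones of DHN1 included, overlapped between the cell types. After the 40% of probe sets with the lowest means were left out, 10 of the 12 probe sets and 7 of the 8 genes were tested. None of the 10 was called (limma, adjusted p under 0.05), as against 0.320% of all tested probe sets, and 2 of the 10 had an unadjusted p under 0.05. An unadjusted p under 0.05 was found for 2851 of all 34355 tested probe sets, the background for each such count below. The antipodal arrays were all higher for 2 of the 10, where 7.26% of all tested probe sets had that order, and the synergid arrays were all higher for 1 of the 10, where 6.17% did. Since the theme was chosen with these differences in view, nothing is read from these counts.

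**Figure D1:**
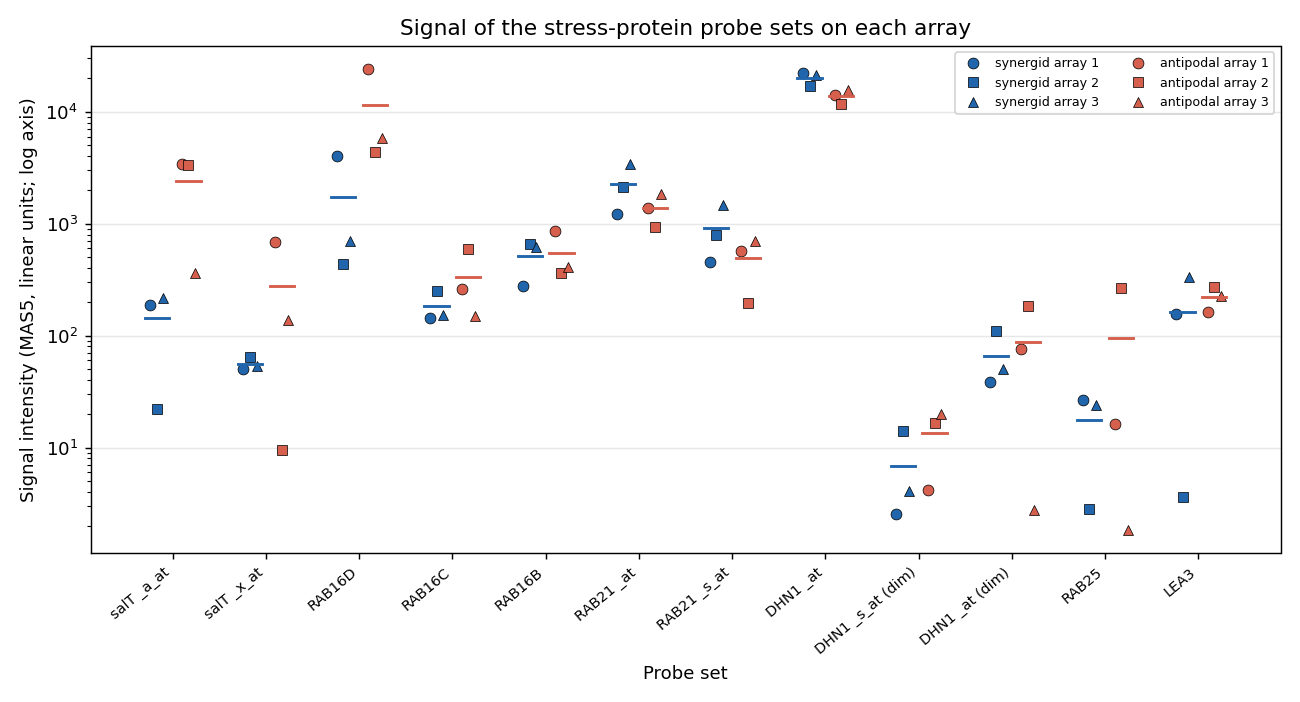
Signal of all 12 probe sets on each array (log axis, linear intensity units), synergid arrays in blue and antipodal arrays in red, with horizontal bars at the arithmetic mean of 3 arrays. The antipodal arrays lie above the synergid arrays for the _a_at probe set of salT and for RAB16D, and below them for the bright probe set of DHN1.

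The lectin gene salT (LOC4326471) was read by a pair of probe sets. On the first, the _a_at probe set, whose suffix marks probes shared by transcripts of 1 gene, the signal was 188 on synergid array 1, 22.2 on array 2 and 218 on array 3. On antipodal arrays 1, 2 and 3 it was 3443, 3360 and 366. Every antipodal array thus lay above every synergid array, but antipodal array 3 came much closer to the synergids than to its own group. Synergids averaged 143 ± 105 and antipodals 2390 ± 1753 (SD, n = 3 each). On the log2(signal + 16) scale the difference of synergid minus antipodal was -3.75 (SE 0.84), which makes antipodals 13.5-fold higher. Within the groups the highest array exceeded the lowest 9.82-fold in synergids and 9.41-fold in antipodals, so the spread among arrays of 1 cell type was nearly as large as the difference itself.

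The size of the salT difference moved with single arrays. Without synergid array 2, where it was lowest, the log2 difference was -2.91, and without antipodal array 3 it was -4.80. Without antipodal array 2, the array that stood apart, it was -3.23.

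The other salT probe set, the _x_at probe set, whose suffix marks probes that may bind other transcripts, gave another picture. It read 49.99, 64.97 and 53.6 on synergid arrays 1, 2 and 3. Antipodal arrays 1 and 3 were higher, at 688 and 138, while antipodal array 2 was the lowest of all at 9.53. The cell types overlapped, and the log2 difference was -0.96 (SE 1.00). On antipodal array 2 the probe sets disagreed, since the first was near its highest value there and the second at its lowest. Without that array the second had a log2 difference of -2.19, and without antipodal array 1 it was 0.20, with the opposite sign. Over the 6 arrays the correlation of the log2 signals of the salT probe sets was 0.230, given as a description.

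RAB16D (LOC4350451), a dehydrin of the ABA-responsive RAB16 cluster, had 4047, 432 and 698 on synergid arrays 1, 2 and 3. Its antipodal signals were 24084, 4332 and 5869. The groups did not overlap, but only just: synergid array 1 reached 4047 and antipodal array 2 was at 4332. The means were 1726 ± 2015 and 11428 ± 10987 (SD, n = 3 each), and the log2 difference was -2.96 (SE 0.71), or 7.80-fold higher in antipodals. Array 1 was the brightest of each cell type for this gene, 9.37-fold above the lowest synergid and 5.56-fold above the lowest antipodal array.

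Arrays numbered 1 were written with fewer digits in the deposited table than the other 4, so the difference was also taken within each number format. Between synergid 1 and antipodal 1 the log2 difference of RAB16D was -2.57, and among the 4 arrays of the longer format it was -3.16. For the first salT probe set these values were -4.08 and -3.59. Since the groups of both genes do not overlap, the sign within a format could not have turned, and only the sizes are informative. The shorter format holds 1 array of each cell type and allows no test. Leaving out synergid array 1 gave RAB16D a log2 difference of -3.91, leaving out synergid array 2 gave -2.32, and leaving out antipodal array 1 gave -2.21. Without antipodal array 2 it was -3.45.

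The neighbours of RAB16D in the cluster did not share its pattern of signals. RAB16C (LOC4350452) had 143, 253 and 154 on the synergid and 261, 598 and 151 on the antipodal arrays. Its highest signal was on antipodal array 2, and antipodal array 3 lay among the synergids. The log2 difference was -0.66 (SE 0.63), and -0.15 without antipodal array 2.

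RAB16B (LOC4350453) had 278, 656 and 617 in synergids and 858, 362 and 410 in antipodals. The highest and lowest arrays were antipodal 1 and synergid 1, the cell types overlapped throughout, and the log2 difference was -0.06 (SE 0.52). Its sign turned in 5 of 17 other settings. Within the formats it was -1.57 between the arrays numbered 1 and 0.70 among the other 4.

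RAB21 (LOC4350454), the first gene of this family described as responsive to ABA, was read by a pair of probe sets. The _at probe set had 1209, 2108 and 3441 in synergids and 1372, 942 and 1823 in antipodals. The _s_at probe set, whose probes may bind several genes, had 459, 798 and 1463, and 568, 197 and 704. Both put the 6 arrays in the same order, with synergid array 3 highest, then synergid 2, antipodal 3, antipodal 1, synergid 1 and antipodal 2. Their correlation was 0.957 over the 6 arrays. The log2 differences were 0.63 (SE 0.43) and 0.89 (SE 0.56), with the synergid mean higher and the cell types overlapping. Without synergid array 3 that of the _at probe set was 0.26. Between the arrays numbered 1 the differences were -0.18 and -0.30, and among the other 4 they were 1.03 and 1.49.

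Among these 4 cluster genes, with the _at probe set for RAB21, the correlation of log2 signals over the 6 arrays ran from -0.638 to 0.476 in 6 pairs. These values share arrays and are given as a description.

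DHN1 (LOC4330265, also called LIP9), an acidic dehydrin, had a bright _at probe set with the smallest SE of the 10 tested. It read 22026, 16905 and 21234 on synergid arrays 1, 2 and 3. The antipodal arrays had 14054, 11828 and 15734. All synergid arrays were above all antipodal arrays, and the highest array of a cell type exceeded the lowest only 1.30-fold in synergids and 1.33-fold in antipodals. The means were 20055 ± 2756 and 13872 ± 1959 (SD, n = 3 each), and the log2 difference was 0.53 (SE 0.29), or 1.44-fold higher in synergids. It was 0.42 without antipodal array 2, 0.65 between the arrays numbered 1 and 0.47 among the other 4. The 2 further probe sets of DHN1 were dim. One, between 2.56 and 19.8 on the 6 arrays, was left out as too low. The other ran from 2.78 on antipodal array 3 to 183 on antipodal array 2, with a log2 difference of 0.14 (SE 0.92).

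**Figure D2:**
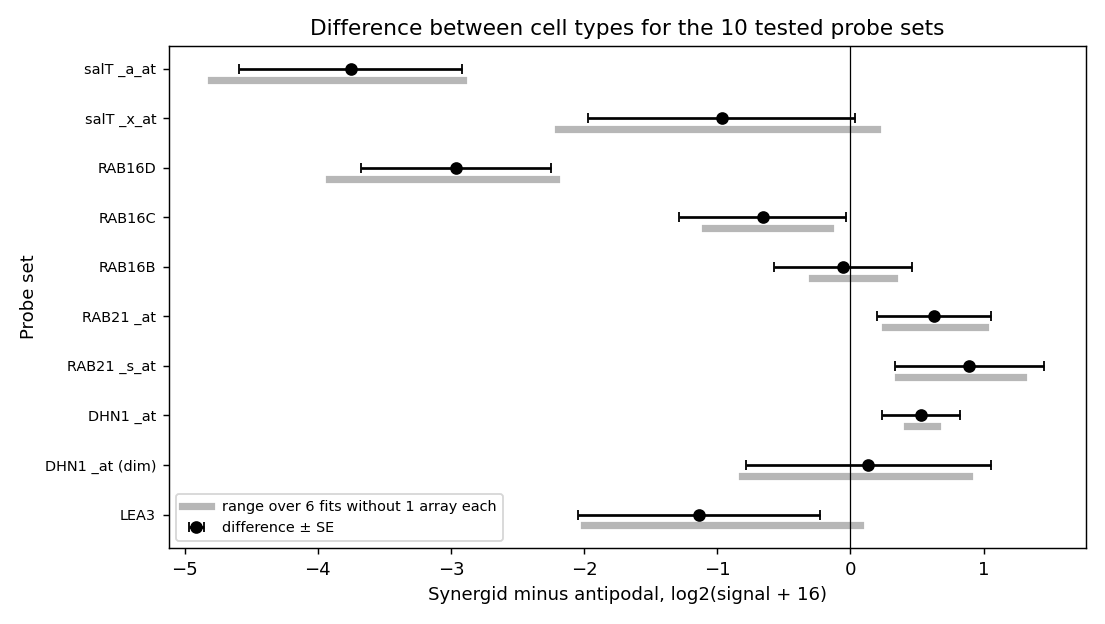
Synergid minus antipodal difference on the log2(signal + 16) scale for the 10 tested probe sets (points, with SE as bars) and the range over 6 fits that each leave out 1 array (grey). The salT _a_at probe set at -3.75 and RAB16D at -2.96 keep their sign in all 6 fits, while RAB16B, the salT _x_at probe set, the dim DHN1 probe set and LEA3 cross 0.

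LEA3 (LOC4339480, listed as LEA19), a LEA protein of group 3, had 156, 3.64 and 333 on synergid arrays 1, 2 and 3, and 164, 274 and 224 on the antipodal arrays. The antipodal arrays lay close together, within 1.67-fold, while synergid array 2 was far below the rest of its group, which spanned the antipodal signals. The log2 difference of -1.14 (SE 0.91) came from that array, and without it the value was 0.07. With a pseudocount of 1 in place of 16 it was -1.80. Its _s_at probe set may bind several genes.

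RAB25 (LOC4326935), another dehydrin, was the member left out as too low. It had 26.4, 2.84 and 23.9 in synergids and 16.1, 267 and 1.85 in antipodals. A single array, antipodal 2, lay above the cutoff signal of 36.7, and the others were below it.

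Synergid array 2 was the lowest of the 6 for the first salT probe set, RAB16D and LEA3. Antipodal array 1 was the highest for both salT probe sets, RAB16D and RAB16B. Poly-A spike-in controls, which follow the amplification (12 probe sets at the 3′ end), had geometric means of 3865, 41189 and 6738 on the synergid and 7597, 134411 and 53145 on the antipodal arrays. Synergid array 2 was thus the synergid array with the highest value of this control and antipodal array 1 the antipodal array with the lowest. Antipodal array 2, with the highest value of all, went both ways. It was the lowest of the 6 arrays for 4 of the 10 tested probe sets and the highest for 2. The part of these controls in the members' signals was not tested.

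For the members whose groups did not overlap, the genes with the most similar pattern were sought among 2182 tested genes that carry a descriptive gene name, by the correlation of log2 signals over the 6 arrays. So many genes over so few arrays give high values for any profile, and the correlations are a description. Nearest to the first salT probe set were APG4B (LOC4337435, 0.994), an autophagy protease gene, NF-Y4 (LOC4330587, 0.984) and GPI-B (LOC4340677, 0.978), a glucose-6-phosphate isomerase gene. APG4B had 3169, 2089 and 3065 in synergids and 5001, 4907 and 3294 in antipodals and so had no overlap, but a far smaller range than salT.

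RAB16D was most like HAK7 (LOC4344235, 0.999), a potassium transporter gene, GPI-A (LOC4334290, 0.995), which encodes a further glucose-6-phosphate isomerase, and CPK21 (LOC4346187, 0.990), a calcium-dependent protein kinase gene. HAK7 had 10589, 3627 and 4505 in synergids and 21878, 10473 and 12275 in antipodals, with a slight overlap. For DHN1 the nearest were HAK15 (LOC4336950, 0.993), BFRP (LOC4343450, 0.977) and PLD1 (LOC4327647, 0.976). HAK15 had 3870, 2297 and 3862 against 1592, 1314 and 2009.

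The wider setting was read from lists of related genes, from which members were left out. Of the 22 tested genes of ABA synthesis, breakdown and signalling, 0 were called in either direction by limma and 4 had an unadjusted p under 0.05. Their median log2 difference was 0.21, against -0.08 over all tested probe sets, with 14 above 0 and 8 below. TRAB1 (LOC4345807), a bZIP factor that binds ABA-responsive elements, had the highest mean signal of the list and overlapped, at 3908 ± 223 in synergids and 4867 ± 1989 in antipodals (log2 difference -0.24, SE 0.34). The type 2C phosphatase gene PP2C06 (LOC4324201) had 4086 ± 444 and 3196 ± 1105 (0.40, SE 0.34). The SAPK kinase genes went both ways. As examples chosen after their values were seen, SAPK10 (LOC4333435) had 240 ± 45.0 and 771 ± 256 (-1.58, SE 0.49, adjusted p = 0.330), and SAPK1 (LOC4333017) had 1331 ± 985 and 353 ± 95.9 (1.66, SE 0.51, adjusted p = 0.337).

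Of the list of other LEA and cold-induced proteins, 4 genes matched and 0 were called, with 2 at an unadjusted p under 0.05. LTI6B (LOC4337750) and LTI6A (LOC4344028), small membrane proteins induced by cold, had 2168 ± 983 and 2670 ± 414 in synergids and 2901 ± 839 and 1471 ± 373 in antipodals (log2 differences -0.47, SE 0.38, and 0.87, SE 0.35). PM1 (LOC4338635), a plasma membrane protein of the PM19 family, had 379 ± 109 against 110 ± 80.1 (1.80, SE 0.64, adjusted p = 0.463). EMP1 (LOC4338499), a group 1 LEA protein of the seed, ran from 33.6 to 629 on the synergid and from 39.7 to 375 on the antipodal arrays, which overlapped (-0.30, SE 0.97).

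Of 25 tested genes on the osmotic and salt stress list, 0 were called and 9 had an unadjusted p under 0.05. The median log2 difference was 0.42, with 19 genes above 0 and 6 below. Over all 34355 tested probe sets, 2851 had such an unadjusted p. The signals did not overlap for 7 genes with the synergids higher and for 1 with the antipodals higher, where 6.17% and 7.26% of all tested probe sets had these orders. In the ABA list these counts were 2 and 2, in the LEA list 2 and 0, and in the jasmonate list described next 1 and 2. SAP8 (LOC4341520), a stress-associated zinc finger gene, had 22889 ± 6630 and 14208 ± 6290 (0.73, SE 0.37). TPP1 (LOC4330221), a trehalose-6-phosphate phosphatase gene, had 21048 ± 8333 and 9226 ± 3537 (1.20, SE 0.38, adjusted p = 0.351). Both genes for the proline synthesis enzyme P5CS, named after their values were seen, had higher synergid means: P5CS1 (LOC4338979) with 17933 ± 3635 against 9922 ± 4781 (0.98, SE 0.40), and P5CS2 (LOC4324853) with 1150 ± 133 against 495 ± 174 (1.24, SE 0.42). The adjusted p of these was 0.533 and 0.427.

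The lectin list matched no further lectin gene and held 15 tested genes of jasmonate synthesis and response, of which 0 were called and 1 had an unadjusted p under 0.05 (median log2 difference -0.00, 7 above 0 and 8 below). AOC (LOC4333201), allene oxide cyclase, had 6257 ± 1417 and 5718 ± 2766 (0.23, SE 0.38), and BHLH148 (LOC4334060), a jasmonate response factor gene, had 6394 ± 2844 and 6285 ± 3823 (0.19, SE 0.49).

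**Figure D3:**
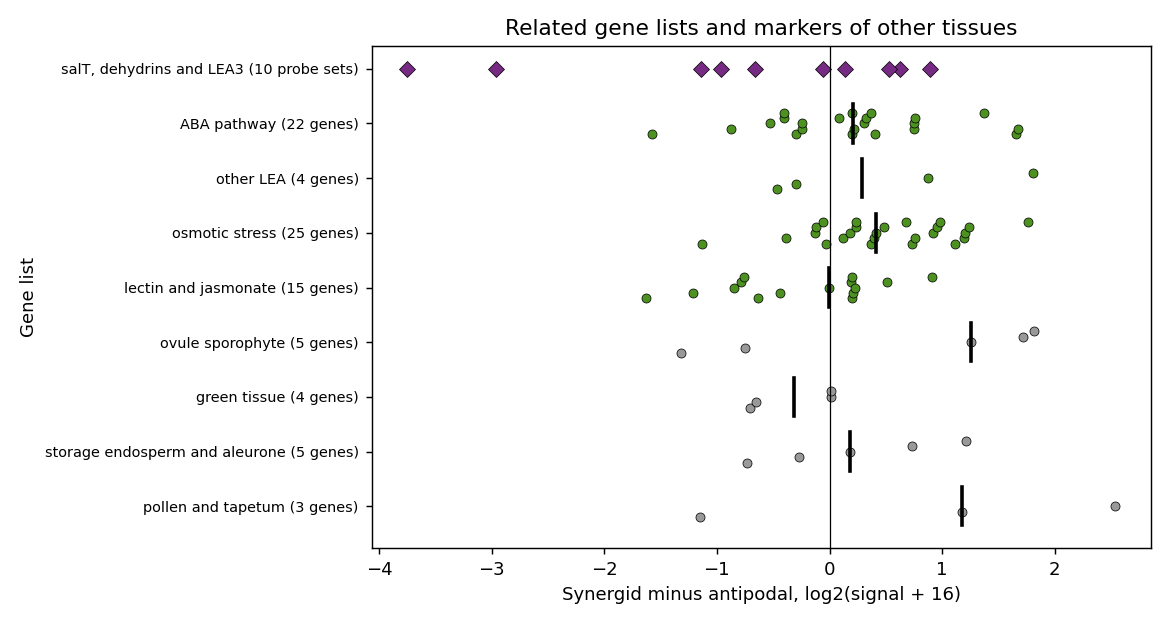
Synergid minus antipodal difference on the log2(signal + 16) scale for the 10 tested member probe sets (diamonds) and for the tested genes of 4 related lists (green) and 4 lists of markers of other tissues (grey), with the list median as a vertical bar. The diamonds of the salT _a_at probe set and RAB16D, at -3.75 and -2.96, lie to the left of every list gene, whose lowest value is -1.63, while that of the salT _x_at probe set, at -0.96, lies among them. The theme was chosen with the signals of salT and RAB16D known, so nothing is read from their place.

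Markers of other tissues were summed over each list on every array. The list for ovule tissue around the embryo sac had 5 of 5 genes tested and 0 called, with 3 at an unadjusted p under 0.05. Its summed signal was 5720 to 10768 on the synergid and 2973 to 4119 on the antipodal arrays. This sum moved the way the bright DHN1 probe set did and against the first salT probe set and RAB16D. MADS29, MADS13 and MADS21 were higher on all synergid arrays, an order that 6.17% of all tested probe sets had. MADS16 and DL, flower genes that are not specific to the ovule, had higher antipodal means and overlapped. Storage endosperm and aleurone, in which dehydrins and LEA proteins are abundant, had 12 markers matched, 5 tested and 0 called, with sums of 2238 to 2935 and 1955 to 3053. The median log2 difference of its 5 tested genes was 0.18, with 3 above 0 and 2 below. WX1, the brightest of them, had 899 ± 319 in synergids and 722 ± 726 in antipodals, and RAG2 had 588 ± 259 and 270 ± 206. Of its 5 matched glutelin genes, GLUA1, GLUA3, GLUB4 and GLUB5 were too low for the test. The glutelin gene GLUA2 went the other way, with 375 ± 137 and 620 ± 183. Green tissue had 4 of 5 markers tested and 0 called, with sums of 4425 to 10401 and 6492 to 12763. Pollen and tapetum had 3 of 6 tested and 0 called, with sums of 1221 to 2488 and 742 to 979. Its 2 genes with an unadjusted p under 0.05 share the name CP1, and one of them is a cystatin gene. The sum of this list is therefore not a measure of pollen and tapetum alone. Of these, LOC4327535, the brightest of the list, had 1141 ± 588 and 460 ± 96.15 (log2 difference 1.18, SE 0.47, adjusted p = 0.521). It alone gave 625 of 1221, 1782 of 2488 and 1015 of 1324 on synergid arrays 1, 2 and 3. On antipodal arrays 1, 2 and 3 it gave 538 of 749, 352.5 of 979 and 489 of 742. LOC4337353 had 439 ± 172 and 59.6 ± 13.6 (2.535, SE 0.62, adjusted p = 0.157). The remaining tested gene, OSC4, had 46.2 ± 37.6 and 140 ± 154.5 (-1.15, SE 0.92). RTS, RAFTIN1 and OSC6 were too low for the test. The part of these tissues in the members' signals was not tested.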

How the data were processed

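The authors deposited 1 table of linear signal intensity for 57381 probe sets on 6 Affymetrix rice arrays, all of whose columns matched a sample. GCOS 2.0 and MAS5, a method that summarises each array by itself, are named in the submitters' processing notes; the common trimmed mean shows a scaling before deposit. Probe sets were named from the platform annotation and, through gene numbers, a RefSeq table of assembly ASM3414082v1 (22436 probe sets with 1 gene, 17905 genes, all matched). That table was used for names, synonyms and neighbours. No genome or sequence was used.

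Left out were 123 controls and the dimmest 40% of the rest, ranked by mean log2(signal + 16) (below a log2 value of 5.72, a signal of 36.7), leaving 34355. The comparison used limma 3.58.1 under R 4.3.3 (lmFit, eBayes with an intensity trend, 4 residual degrees of freedom and 10.6 from the prior). A call is a Benjamini-Hochberg adjusted p under 0.05, with the adjustment made across all 34355. The number of arrays limits the precision. Folds of dim probe sets on this scale depend on the pseudocount. The fit was tested on simulated data.

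Members and lists were chosen with earlier results of these data known. Lists were matched whole by symbol or synonym and a gene was read from its brightest probe set, so a shared synonym can bring in an unrelated gene. Named were all members, at most 2 called genes in each direction per list or the 2 with the highest mean where none was called, and the 3 genes most like a member; the text says which others were named after their values were seen, apart from markers and the 4 genes of the short LEA list. Alternatives changed the pseudocount, filter, scaling, model, number format and replicates. Python 3.11.15 and matplotlib 3.10.9 made the figures.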

Additional observations from a re-analysis of the deposited data

How the results depend on the processing

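Against 17 other settings, the first salT probe set, RAB16D, RAB16C, both RAB21 probe sets and the bright DHN1 probe set kept the sign of their difference in all 17. Where the groups do not overlap, leaving out arrays cannot turn the sign. The others turned sign in 5 settings (RAB16B), 3 (the dim DHN1 probe set), 2 (the second salT probe set) and 1 (LEA3). Calls of salT and RAB16D come from the contrast they were chosen on, so they show only how the count moves and support nothing. No member was called in the fit reported, but 1 was with no filter or with the lowest 20% dropped (salT each time) and with array weights (RAB16D). Both were called with the replicate block, with the number format as a block and on the 4 arrays of the longer format, and 0 to 2 were called without 1 array each (2 without synergid array 1, 1 without antipodal array 3). The first salT probe set had a log2 difference of -2.94 with array weights. Calls over all tested probe sets numbered 110 as reported, 31 with no intensity trend, 193 with array weights, 293 with the replicate block, 284 with the number format as a block, 458 on the longer format only, and from 42 to 317 without 1 array each (42 without synergid array 2, 61 without synergid array 3 and 317 without synergid array 1). The cause of these changes was not tested. Same-numbered arrays had correlations of their deviations from the group means of 0.218, 0.116 and 0.0197, and 2 of the 3 synergid arrays correlated best with their own number. These few values do not settle whether same-numbered arrays belong together. The labels state no pairs, so the fit reported took none, and the replicate block is given as an alternative. Median centring moved the median log2 difference of all tested probe sets from -0.08 to 0.37, and with it DHN1 to 0.98, RAB16B to 0.39 and RAB16D to -2.52. The related lists had 0 calls in all settings, and the marker lists had 0 except 1 with array weights.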
